A study of Mus musculus with 7 samples.

Results

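Genes of the p53 pathway were followed on 7 arrays of leukemic cells from mice with T-cell acute lymphoblastic leukemia. The list held p53 itself (Trp53) and 9 genes that p53 is known to induce: Mdm2, Ccng1, Trp53inp1, Phlda3, Sesn1, Sesn2, Aen, Btg2 and Zmat3. All probe sets annotated to exactly 1 of these symbols were taken, which gave 22 of the 45037 probe sets and 9 of the 18193 genes named in the table. Trp53 had 0 such probe sets in the annotation used here and was not analysed here, so every value below belongs to a target gene. Of the 22 probe sets, 2 had a mean below the median of all probe sets (5.52 on the log2 scale), and none was left out by a filter.

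Both groups carried the C57Bl/6 background and were taken from terminally ill animals. The ICN1 group (n = 3 arrays) came from the bone marrow of mice made leukemic by ICN1, an active form of NOTCH1 that consists of its intracellular domain. The TEL-JAK2 group (n = 4 arrays) held thymus cells of mice whose leukemia was induced by TEL-JAK2, a fusion protein in which the kinase JAK2 is constitutively active. The series set the transcriptomes of both leukemias side by side. No healthy or untreated sample entered the comparison, the promoter or vector that carried each oncogene and the ages of the animals were not given in the sources used here, and no sorting of the cells is named. Genotype and tissue changed together and cannot be told apart. The labels name the arrays by different identifiers without stating outright that each is a separate animal, so the p-values reflect spread among arrays that may be technical.

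The transcription factor p53 is kept low in unstressed cells by MDM2, a ubiquitin ligase that marks it for degradation. DNA damage, oncogene activity and other stresses release p53, which then switches on genes that halt the cell cycle, repair DNA, restrain growth signalling or kill the cell. Mdm2 is one of these target genes, so p53 raises its own inhibitor. In the T lineage p53 is a main barrier to lymphoma and leukemia, and immature thymocytes are known for dying readily through it.

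Every array was of similar brightness, with medians between 5.44 and 5.5 on the log2 scale. The 2 closest arrays differed more than 2-fold in 846 probe sets. T-cell genes were bright on all arrays (mean of 8 genes 11.32 to 11.46 in ICN1 and 11.79 to 11.92 in TEL-JAK2), and 6 of the 8 were higher and 1 (Cd5) was lower in TEL-JAK2. Erythroid genes averaged 11.37 to 11.59 in ICN1 and 6.09 to 6.51 in TEL-JAK2, with 9 of 11 lower in TEL-JAK2. Monocyte and macrophage genes averaged 8.48 to 9.87 in ICN1 and 6.25 to 8.37 in TEL-JAK2 (5 of 11 lower), and granulocyte genes 6.04 to 7.77 and 5.21 to 5.49 (5 of 11 lower). Thymic epithelial genes averaged 4.98 to 5.58 in ICN1 and 5.83 to 6.44 in TEL-JAK2 (1 of 9, Epcam, higher). These averages lean on Epcam, with means of 4.78 in ICN1 and 10.92 in TEL-JAK2, and the other 8 genes were not called. B-lineage, dendritic and stromal genes averaged 5.92 to 7.51, 6.32 to 7.95 and 5.80 to 7.08 in ICN1, and 6.55 to 7.58, 7.51 to 9.01 and 5.24 to 6.97 in TEL-JAK2, with 1 of 9 higher, 0 of 10 called and 1 of 10 lower. Their part in the differences of the p53 targets was not tested, and in such mixed suspensions fewer cells of a type and less RNA per cell cannot be told apart. ICN1 replicates 1 and 2 held both Xist (11.51 and 11.78) and the Y-linked Eif2s3y (8.93 and 9.41). The labels do not say whether these 2 arrays hold cells of more than 1 animal, so n = 3 counts arrays, and the values of Ccng1, Btg2, Trp53inp1, Phlda3 and Mdm2 are also given without both. ICN1 replicate 3 and TEL-JAK2 replicates 1 to 3 were high in Xist alone, with Eif2s3y at 3.18 to 3.29. TEL-JAK2 replicate 4 was high in Eif2s3y alone (10.23, with Xist at 5.19).

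Ccng1 and Btg2, described first below, were the only members called in the comparison of the leukemias, and their upstream sequences are shown because they differ in the letters that p53 is known to bind. RefSeq start sites of build GRCm38.p6 were matched for 7 of the 9 measured genes, with 9 windows of 250 bases before to 50 bases after a start. Trp53inp1 and Zmat3 had no window and were not searched. Each window was searched on both strands for the p53 half-site consensus and for 2 adjoining half-sites with at most 2 mismatches in all. The windows were also searched for TGACGTCA, which is not part of the p53 consensus and was set to be marked in Btg2 only. The stretch of Ccng1 lies on the minus strand at chr11:40755287-40755536 and that of Btg2 on the minus strand at chr1:134079156-134079405, and both end at the base before the annotated start. Capitals in Ccng1 mark the paired half-sites, and capitals in Btg2 mark TGACGTCA, the consensus cyclic AMP response element.
Ccng1: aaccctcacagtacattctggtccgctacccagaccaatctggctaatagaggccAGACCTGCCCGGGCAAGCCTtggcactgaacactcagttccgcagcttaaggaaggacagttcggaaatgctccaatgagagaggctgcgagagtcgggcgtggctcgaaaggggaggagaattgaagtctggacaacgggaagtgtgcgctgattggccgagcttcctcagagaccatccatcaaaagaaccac
Btg2: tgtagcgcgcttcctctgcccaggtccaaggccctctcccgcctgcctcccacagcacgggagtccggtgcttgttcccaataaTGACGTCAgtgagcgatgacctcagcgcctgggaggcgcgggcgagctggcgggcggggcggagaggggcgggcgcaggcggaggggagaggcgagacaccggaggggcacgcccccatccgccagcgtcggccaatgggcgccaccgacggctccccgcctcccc

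The paired half-sites of Ccng1 span chr11:40755462-40755481 and depart from the consensus at 1 of their bases. Such a pair was found in 0.798% of all 32851 promoter windows of this length, and Ccng1 was the single member with one among those searched. A half-site without mismatch was found in 8.36% of all windows and, among the members, once each in the windows of Ccng1 and Mdm2, in 1 of 2 windows of Sesn1, and in both of the overlapping windows of Aen. The windows of Btg2, Phlda3 and Sesn2 held 0 such half-sites. TGACGTCA stood in 1.79% of all windows and, among the members, in that of Btg2. These are matches of letters only, and they say nothing about binding or about sites outside the windows.

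Of the member genes, Ccng1 and Btg2 were higher in TEL-JAK2 than in ICN1, and the other 7 measured genes were not called. The comparison was made with limma across all probe sets, as TEL-JAK2 minus ICN1 on the log2 scale, given with its standard error (SE), and a call needed an adjusted p (Benjamini-Hochberg) under 0.05. By gene, 2 of 9 were called, each in all of its probe sets. Among all genes, represented by their brightest probe set, 11.3% were called higher in TEL-JAK2 and 23% in either direction. By probe set, 5 of the 22 were called, all 5 higher in TEL-JAK2, against 9.26% called higher and 19.6% called in either direction over all probe sets. The share of members called in either direction, 22.7%, was thus near the background. A further 4 member probe sets had an unadjusted p under 0.05, for 9 in all, every one of them higher in TEL-JAK2. The share of all probe sets at an unadjusted p under 0.05 was not counted, so these 9 have no background beside them. No member probe set was called lower by limma, and 0 had a lower value at an unadjusted p under 0.05. The groups did not overlap in 6 of the 22 probe sets, TEL-JAK2 being above in each, as in 16.2% of all probe sets, while 30.7% did not overlap in either direction. The median difference of the 22 was 0.25, beside 0.04 over all probe sets.

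**Figure D1:**
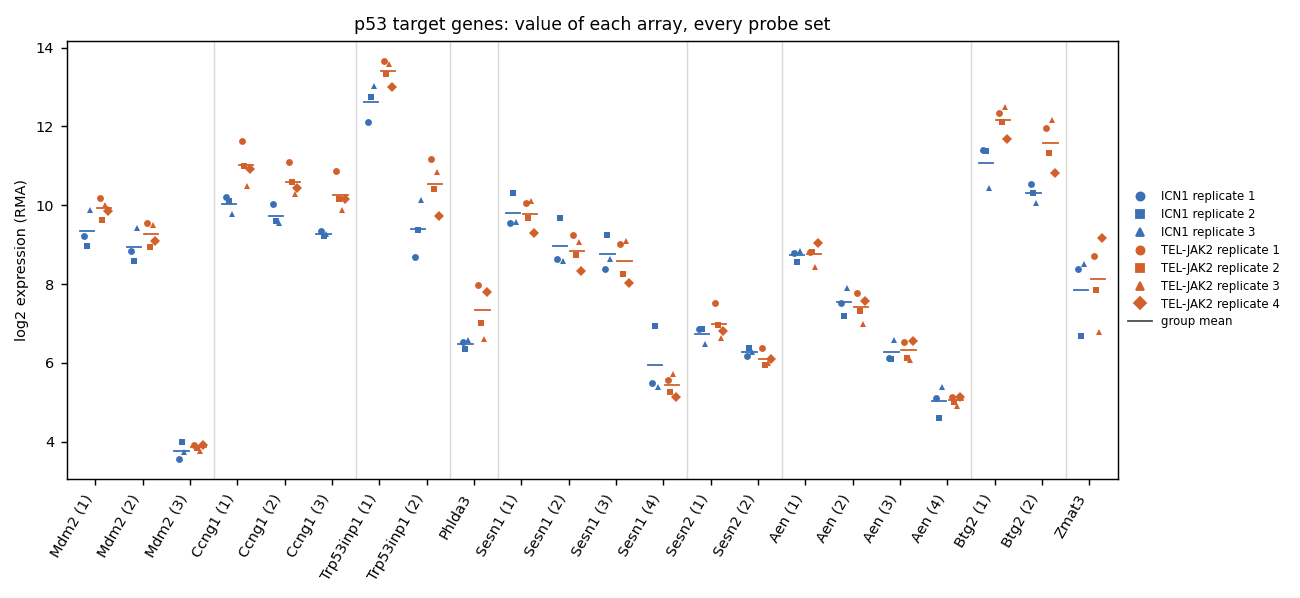
Log2 expression of each of the 22 probe sets of the 9 target genes (x axis, numbered from the brightest within a gene) on each array (symbols), with ICN1 in blue, TEL-JAK2 in orange and group means as short lines. The 3 probe sets of Ccng1, both of Btg2 and the single one of Phlda3 show no overlap between the leukemias, while those of Sesn1, Sesn2, Aen and Zmat3 do.

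Ccng1 encodes cyclin G1, a p53-induced protein that recruits a phosphatase to MDM2. Its brightest probe set (1420827_a_at) read 10.20, 10.10 and 9.77 in ICN1 replicates 1 to 3 and 11.64, 11.01, 10.49 and 10.91 in TEL-JAK2 replicates 1 to 4. Every TEL-JAK2 array lay above every ICN1 array, with replicate 1 the highest and replicate 3 the nearest to ICN1. The means were 10.02 ± 0.22 (SD, n = 3) and 11.01 ± 0.47 (SD, n = 4), a 1.98-fold difference (0.99 ± 0.26 on the log2 scale, limma adjusted p = 0.0334). The other 2 probe sets gave 0.87 ± 0.21 (1450016_at, adjusted p = 0.0269) and 0.99 ± 0.22 (1450017_at, adjusted p = 0.0196) in the same fit. In 1450017_at the 3 ICN1 arrays stood close together, at 9.34, 9.21 and 9.26, and the TEL-JAK2 arrays read 10.88, 10.17, 9.87 and 10.15. The ICN1 arrays of this gene thus spanned 0.13 to 0.49 and the TEL-JAK2 arrays 0.81 to 1.14, depending on the probe set.

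Btg2 encodes an antiproliferative protein that binds the CCR4-NOT deadenylase complex. Its brightest probe set (1416250_at) read 11.40, 11.38 and 10.43 in ICN1 and 12.35, 12.12, 12.49 and 11.67 in TEL-JAK2. The groups did not overlap, and ICN1 replicate 3 stood below the other 2 ICN1 arrays. The difference was 1.09 ± 0.29 (2.13-fold, limma adjusted p = 0.037). The second probe set (1448272_at) read 10.55, 10.31 and 10.05 in ICN1 and 11.97, 11.32, 12.16 and 10.83 in TEL-JAK2, a difference of 1.27 ± 0.32 (2.4-fold, limma adjusted p = 0.0304). In both probe sets TEL-JAK2 replicate 3 was the highest array and replicate 4 the lowest of its group. Ccng1 had another order, with TEL-JAK2 replicate 1 highest and replicate 3 lowest in all 3 of its probe sets.

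These 5 calls stood close to the threshold, and each was lost in some of the fits without 1 array. Those fits also called fewer of all probe sets, 6175 to 8563 beside 8832. A lost call did not always come with a smaller difference. Without ICN1 replicate 2 the differences were 1.03, 0.82 and 0.96 for Ccng1 and 1.24 and 1.27 for Btg2. With all arrays they were 0.99, 0.87 and 0.99 for Ccng1 and 1.09 and 1.27 for Btg2. Dropping ICN1 replicate 2 ended all 5 by limma, with adjusted p of 0.0752, 0.0818 and 0.06 for the probe sets of Ccng1 and 0.0504 and 0.0776 for those of Btg2, and left 0 of the 22 called. Dropping ICN1 replicate 3 ended all 5 as well (0.0963, 0.0791 and 0.0516 for Ccng1, 0.0681 and 0.0879 for Btg2). Dropping TEL-JAK2 replicate 2 left Ccng1 1450017_at alone (0.0752 and 0.0621 for the other Ccng1 probe sets, 0.0789 and 0.0522 for Btg2). Btg2 lost both calls without TEL-JAK2 replicate 1 (0.0967 and 0.0797) and again without TEL-JAK2 replicate 3 (0.0903 and 0.0608), in which fits Ccng1 kept all 3. Without ICN1 replicate 1 the calls of Ccng1 1420827_a_at (0.0611) and Btg2 1448272_at (0.0544) were lost. Without TEL-JAK2 replicate 4 that of Ccng1 1420827_a_at was lost (0.0558). Over these 7 fits the differences ran from 0.71 to 1.16 for Ccng1 and from 0.77 to 1.51 for Btg2. They could not fall below 0, since every TEL-JAK2 array lay above every ICN1 array in these probe sets. Without ICN1 replicates 1 and 2 together, with the lone ICN1 array assumed to vary like TEL-JAK2, Ccng1 read 1.24, 1.06 and 1.0 (limma adjusted p = 0.117, 0.0881 and 0.155). Btg2 read 1.73 and 1.52 in that fit (0.0264 and 0.125).

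Ccng1 and Btg2 were above 0 under each of 3 other scalings, and 1 of these ended calls. Quantile normalization applied again and cyclic loess kept all 5 calls (limma adjusted p from 0.0175 to 0.0417). The first of these could change little, since RMA had already drawn the arrays to 1 distribution. With each array centred on its CD3 genes (mean of Cd247, Cd3d, Cd3e and Cd3g), the median difference of all probe sets moved from 0.04 to -0.59. The 3 Ccng1 probe sets then read 0.37, 0.25 and 0.37 and were not called (limma adjusted p = 0.242, 0.344 and 0.213). Btg2 read 0.47 (adjusted p = 0.0721) and 0.64 (adjusted p = 0.0386, still called). The split of calls over all probe sets was 4172 higher and 4660 lower with the deposited scaling, and 1558 higher and 30005 lower with this centring. Of the 22 member probe sets 7 were then lower: all 4 of Sesn1 (-0.64, -0.74, -0.78 and -1.13), 1 of Sesn2 (-0.81), 1 of Aen (-0.75) and the dim one of Mdm2 (-0.52). These 7 ran from -1.13 to -0.52, beside the moved median of -0.59.

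**Figure D2:**
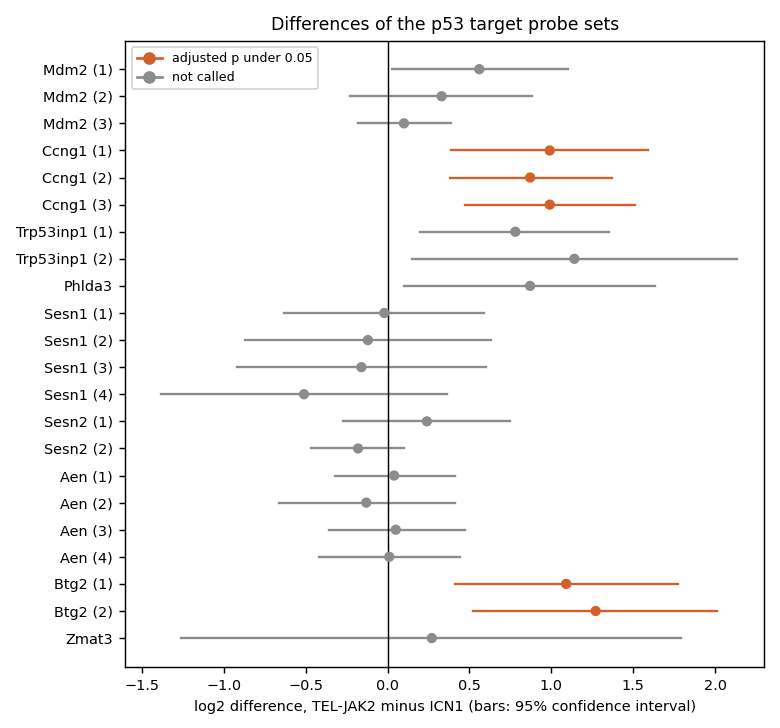
Log2 difference, TEL-JAK2 minus ICN1 (x axis), of each of the 22 probe sets, with the 95% confidence interval of the limma fit as a bar. The 5 called probe sets of Ccng1 and Btg2 (orange) lie between 0.87 and 1.27, and those of Aen lie between -0.13 and 0.05.

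A further 4 probe sets, of Trp53inp1, Phlda3 and Mdm2, were higher in TEL-JAK2 before adjustment and were not called after it. Trp53inp1 encodes a stress protein that promotes p53-driven cell death. Its brighter probe set (1416926_at) read 12.11, 12.75 and 13.02 in ICN1 and 13.67, 13.34, 13.59 and 13.01 in TEL-JAK2. The groups overlapped narrowly, since ICN1 replicate 3 read 13.02 and TEL-JAK2 replicate 4 read 13.01. The difference was 0.78 ± 0.25 (limma adjusted p = 0.0657). Over the 7 fits without 1 array it ran from 0.52 to 0.98 (adjusted p from 0.0411 to 0.156) and was called in 2, without ICN1 replicate 3 (0.98) and without TEL-JAK2 replicate 4 (0.91). The dimmer probe set (1416927_at) gave 1.14 ± 0.42 (adjusted p = 0.107), with a range of 0.78 to 1.51 over those 7 fits and a call in 1, without TEL-JAK2 replicate 4 (adjusted p from 0.0473 to 0.28). Without ICN1 replicates 1 and 2 together the 2 probe sets read 0.38 and 0.41 (adjusted p = 0.448 and 0.701). The dimmer probe set read 8.68, 9.38 and 10.13 in ICN1 and 11.18, 10.41, 10.84 and 9.73 in TEL-JAK2, so each group spanned 1.45. With array weights both probe sets were called by limma (0.94 and 1.43, adjusted p = 0.0296 and 0.0464). In the limma fit that left out the dim probe sets of the array, only the brighter was called (adjusted p = 0.0462 and 0.0716). With unequal variances neither was called.

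Phlda3 encodes a pleckstrin-homology protein that competes with the kinase AKT for membrane lipids. It read 6.53, 6.35 and 6.58 in ICN1 and 7.98, 7.02, 6.61 and 7.80 in TEL-JAK2. All TEL-JAK2 arrays were above all ICN1 arrays, TEL-JAK2 replicate 3 by only 0.03. The difference was 0.87 ± 0.33 (95% confidence interval 0.10 to 1.63, limma adjusted p = 0.113). Without 1 array it ran from 0.65 to 1.11 (adjusted p from 0.034 to 0.243) and was called in 1 of 7 fits, without TEL-JAK2 replicate 3. Without ICN1 replicates 1 and 2 together it was 0.77 (adjusted p = 0.451). With CD3 centring Phlda3 read 0.24 and Trp53inp1 0.16 and 0.52, none of them called. The spread of Phlda3 was unequal, with an SD of 0.12 in ICN1 and 0.65 in TEL-JAK2.

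Mdm2 encodes the ubiquitin ligase that degrades p53. Its brightest probe set (1423605_a_at) read 9.23, 8.97 and 9.87 in ICN1 and 10.18, 9.64, 10.02 and 9.85 in TEL-JAK2. ICN1 replicate 3 lay among the TEL-JAK2 arrays, and the other 2 ICN1 arrays lay below all of them. The difference was 0.56 ± 0.23 (limma adjusted p = 0.132). Without 1 array it ran from 0.37 to 0.82 (adjusted p from 0.0229 to 0.336) and was called in 1 of 7 fits, without ICN1 replicate 3. It was 0.05 without ICN1 replicates 1 and 2 together (adjusted p = 0.92) and -0.06 with CD3 centring. The second probe set (1427718_a_at) read 8.83, 8.58 and 9.42 in ICN1 and 9.55, 8.94, 9.50 and 9.09 in TEL-JAK2, with a difference of 0.33 ± 0.24. The remaining one (1457929_at) was dim, between 3.56 and 4.00 on all arrays (0.10 ± 0.12).

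The sestrins, Sesn1 and Sesn2, restrain the growth kinase complex mTORC1 and limit oxidative damage. None of their 6 probe sets was called by limma, and none reached an unadjusted p under 0.05. The brightest of Sesn1 (1433711_s_at) read 9.55, 10.30 and 9.58 in ICN1 and 10.07, 9.68, 10.12 and 9.30 in TEL-JAK2, a difference of -0.02 with a 95% confidence interval of -0.63 to 0.59. ICN1 replicate 2 was the highest ICN1 array in all 4 Sesn1 probe sets, by the widest margin in the dimmest (1444376_at), which read 6.93 there and 5.49 and 5.40 in replicates 1 and 3. The 4 differences of Sesn1 ran from -0.51 to -0.02. Sesn2 read 6.87, 6.86 and 6.48 in ICN1 and 7.51, 6.97, 6.63 and 6.81 in TEL-JAK2 in its brighter probe set (0.24 ± 0.22), and its other probe set went the other way (-0.18 ± 0.12).

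Aen encodes a nuclease that aids apoptosis. Its differences were small, from -0.13 to 0.05 over 4 probe sets. The brightest (1423957_at) read 8.78, 8.57 and 8.84 in ICN1 and 8.81, 8.81, 8.43 and 9.05 in TEL-JAK2. The confidence interval of its difference, -0.32 to 0.41, excludes a change as large as that estimated for Ccng1 in either direction. This holds for the comparison of group means as scaled by the authors.

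Zmat3, a zinc-finger protein that binds RNA, varied most within the groups. It read 8.39, 6.68 and 8.50 in ICN1 and 8.71, 7.84, 6.78 and 9.16 in TEL-JAK2. ICN1 replicate 2 and TEL-JAK2 replicate 3 stood lowest, at about the same level, and the ranges within a group, 1.82 and 2.39, were the widest among the 22 probe sets. The difference between the groups was 0.27 ± 0.65 (95% confidence interval -1.26 to 1.79, limma adjusted p = 0.826). An interval this wide leaves room for changes larger than those of Ccng1 and Btg2.

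**Figure D3:**
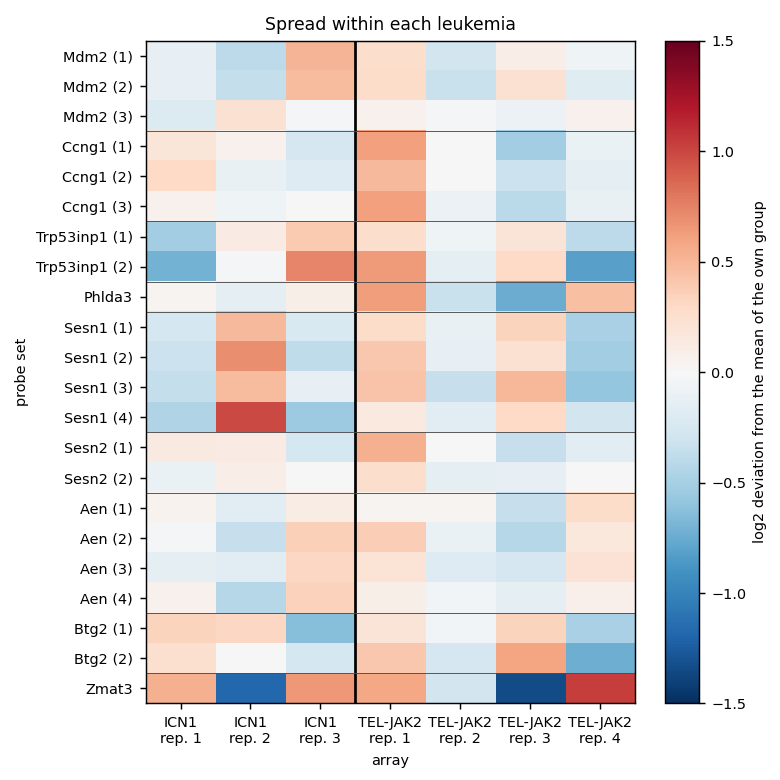
Deviation of each array (columns) from the mean of its own group on the log2 scale (colour), for the 22 probe sets (rows). Zmat3 departs most, at -1.18 in ICN1 replicate 2 and -1.34 in TEL-JAK2 replicate 3, and the Aen rows are lowest in the same 2 arrays, whereas the Sesn1 rows are highest in ICN1 replicate 2.

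Within TEL-JAK2 the target genes did not share 1 order of arrays. TEL-JAK2 replicate 3 was the lowest of its group in 11 of the 22 probe sets, while over all probe sets it was the lowest in 22.7%. Those 11 were all 3 of Ccng1, all 4 of Aen, and 1 each of Mdm2, Phlda3, Sesn2 and Zmat3. The same array was the highest in 5, namely both of Btg2 and 3 of the 4 of Sesn1. TEL-JAK2 replicate 1 was the highest in 14 of 22 (21.7% of all probe sets) and the lowest in 0. Within ICN1, replicate 2 was the lowest in 9 of 22, among them all 4 of Aen and those of Zmat3 and Phlda3 (33.8% of all probe sets). Probe sets of 1 gene share their transcripts, so these counts rest on 9 genes. In those genes, each by its brightest probe set, TEL-JAK2 replicate 3 was the lowest in 5 of 9 and ICN1 replicate 2 in 4 of 9.

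Both ICN1 replicate 2 and TEL-JAK2 replicate 3 were the lowest of their groups in 3 of the 9 member genes (Aen, Phlda3 and Zmat3) and in 6 of 25 further p53 targets (Cdkn1a, Gtse1, Pmaip1, Pml, Rps27l and Tigar), each by its brightest probe set. The same held for 9.38% of all 18193 genes, and not for the other 19 further targets. This tally was made after the values were seen, and it carries no test. Pmaip1 encodes NOXA, a BH3-only protein that promotes cell death. It read 8.81, 5.25 and 7.06 in ICN1 and 6.65, 6.48, 4.58 and 8.14 in TEL-JAK2. Cdkn1a encodes the cell-cycle inhibitor p21 and read 7.18, 6.81 and 7.27 in ICN1 and 8.42, 8.10, 7.20 and 8.32 in TEL-JAK2. The difference of Cdkn1a was 0.93 ± 0.30 (limma adjusted p = 0.0672), and 1.20 without TEL-JAK2 replicate 3 (adjusted p = 0.00525). Its other, dimmer probe set gave 0.48 ± 0.19 (adjusted p = 0.119). The macrophage genes were also lowest in TEL-JAK2 replicate 3 within that group (mean 6.25), but not in ICN1 replicate 2 (9.59, beside 8.48 in replicate 3). Their part in the order of the arrays was not tested.

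Among 25 other p53 targets measured, of 28 listed, 5 were called higher in TEL-JAK2, 4 lower and 16 were not called. Bax, Fdxr and Gdf15 were not analysed here. Over all genes 11.3% were called higher and 11.7% lower, and the median difference of the 25 was -0.15, beside 0.04 over all genes. The 5 higher genes were Fas, a death receptor (2.41 ± 0.59), Xpc and Ddb2, which recognise damaged DNA in nucleotide excision repair (1.51 ± 0.24 and 0.68 ± 0.17), Rrm2b, a subunit of ribonucleotide reductase (0.93 ± 0.12), and Tigar, a regulator of glycolysis (0.65 ± 0.12). Rrm2b read 7.87, 7.71 and 7.80 in ICN1 and 8.76, 8.58, 8.94 and 8.60 in TEL-JAK2, and its other 3 probe sets were called higher as well. The second probe set of Ddb2 was called higher too (0.69 ± 0.17), and the other 2 of Tigar were not called (0.12 ± 0.16 and 0.18 ± 0.14). Fas and Ddb2 lost their calls by limma in 4 and 5 of the 7 fits without 1 array. Dropping TEL-JAK2 replicate 1, replicate 2 and replicate 3 gave adjusted p of 0.0745, 0.0674 and 0.0698 for Fas and 0.0802, 0.0793 and 0.0703 for Ddb2. Dropping ICN1 replicate 1 gave 0.0713 for Fas, and dropping ICN1 replicate 2 and replicate 3 gave 0.0985 and 0.0887 for Ddb2. With CD3 centring Fas (1.79) and Xpc (0.89) stayed called and Rrm2b (0.30), Tigar (0.02) and Ddb2 (0.05) did not.

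The 4 lower targets were led by Gadd45a, a growth-arrest protein induced by DNA damage. It read 10.23, 11.16 and 9.68 in ICN1 and 6.02, 6.00, 6.94 and 5.45 in TEL-JAK2, a 19.1-fold lower level (-4.25 ± 0.43, limma adjusted p = 0.000756). Gadd45a thus went the other way from Ccng1 and Btg2. Ei24, a protein of the endoplasmic reticulum, differed by -1.36 ± 0.26, Gtse1, a microtubule-associated protein that restrains p53 in G2, by -1.11 ± 0.19, and Pidd1, a scaffold for caspase-2 activation, by -0.91 ± 0.13. All 4 stayed called in each of the 7 fits without 1 array. They stayed called with CD3 centring too, but that centring moves every difference down and could hardly end a lower call. The targets with the largest adjusted p were Pmaip1 (-0.58 ± 1.0) and Plk2 (-0.28 ± 0.42).

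**Figure D4:**
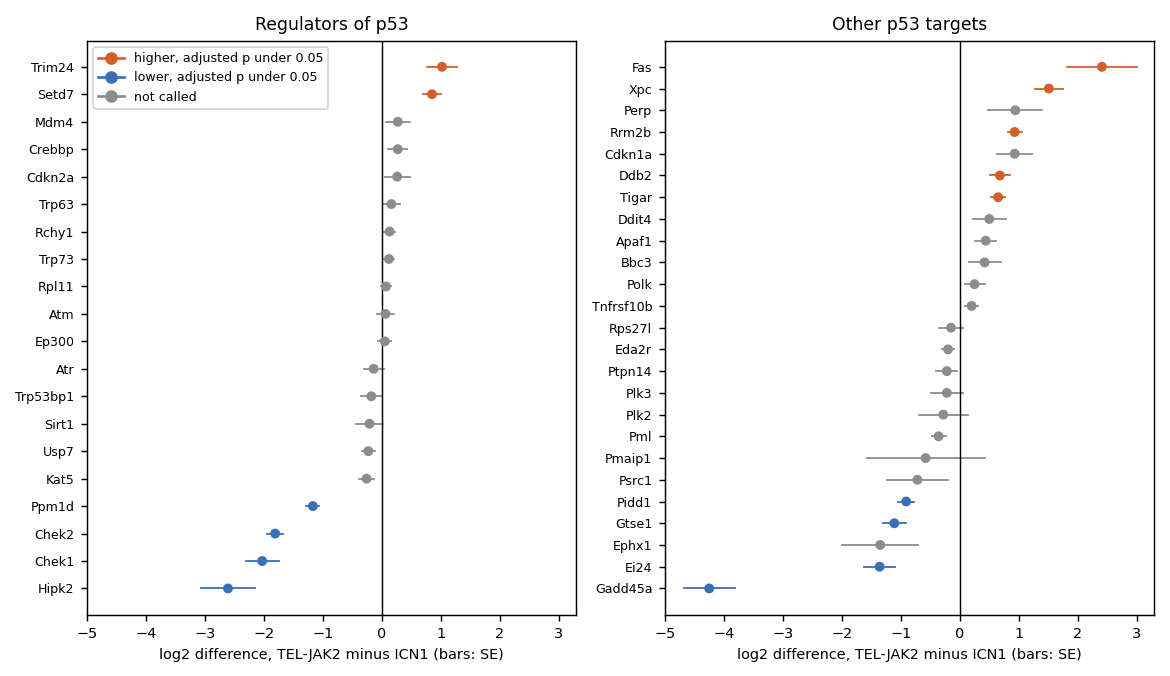
Log2 difference, TEL-JAK2 minus ICN1 (x axis, bars are the SE of the fit), of 20 regulators of p53 (left) and 25 further p53 targets (right), each gene by its brightest probe set. Called genes lie on both sides of 0, from Gadd45a at -4.25 to Fas at 2.41.

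Among 20 regulators of p53 measured, of 21 listed (Rpl5 was not analysed here), 2 were called higher, 4 lower and 14 were not called, beside 11.3% higher and 11.7% lower among all genes. Their median difference was 0.06, beside 0.04 over all genes. The 4 lower genes include 3 kinases that act on p53 or its pathway. Hipk2, which phosphorylates p53 in the death response, differed by -2.61 ± 0.46. The checkpoint kinase genes Chek1 and Chek2 differed by -2.03 ± 0.28 and -1.81 ± 0.14. Chek2 read 8.71, 8.86 and 8.94 in ICN1 and 7.25, 6.83, 6.86 and 7.18 in TEL-JAK2, so the groups lay far apart relative to their spread. Ppm1d, the p53-induced phosphatase WIP1 that shuts the response off, was lower in both probe sets (-1.17 ± 0.11 and -1.34 ± 0.15). Of the other 4 probe sets of Chek1, 3 were called lower and 1, dim in both groups (4.30 and 4.36), was not, and of the other 7 of Hipk2, 4 were called lower and 3 were not.

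Setd7, a methyltransferase that modifies p53, was higher (0.85 ± 0.16), although its other probe set, dim in both groups, read -0.13 ± 0.10. Trim24, a ubiquitin ligase for p53, was higher too (1.02 ± 0.26). Another of its probe sets was called higher as well (1.10 ± 0.21), and a further one was not called (0.25 ± 0.23). The call of its brightest probe set by limma was lost on dropping ICN1 replicate 1 (adjusted p = 0.0959), ICN1 replicate 2 (0.0756), TEL-JAK2 replicate 1 (0.0803) or TEL-JAK2 replicate 4 (0.0505). In their brightest probe sets, neither Setd7 (0.23) nor Trim24 (0.40) was called with CD3 centring. The 4 lower genes stayed called, but this centring moves every difference down and could hardly end a lower call. Mdm4, the partner of MDM2, read 9.23, 9.36 and 9.97 in ICN1 and 9.96, 9.51, 9.72 and 9.98 in TEL-JAK2 (0.27 ± 0.20, not called). Its other probe sets differed by 0.53 ± 0.20, 0.42 ± 0.17 and -0.12 ± 0.12 and were not called either. Cdkn2a, whose locus encodes the MDM2 inhibitor ARF, was dim on all arrays, between 3.84 and 4.76 (0.26 ± 0.21, not called). These 2 were named after their values were seen. Atm (0.06 ± 0.14) and Ep300 (0.05 ± 0.11) had the largest adjusted p, and both turned to lower calls with CD3 centring (-0.56 and -0.57). These 2 values lie close to the median of all probe sets under that centring, -0.59.

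The profiles over the 7 arrays most like that of Ccng1 were those of Hepacam2, Noxred1 and Abcg1, at a root mean square difference of 0.21, 0.21 and 0.23 after each profile was centred on its own mean. Hepacam2 was dim, at 3.35 to 4.59. The profiles nearest to Btg2 were those of Pcmtd2 (0.11), Pip4k2a (0.13) and Mfsd6 (0.15). Pcmtd2 read 9.72, 9.90 and 9.04 in ICN1 and 10.77, 10.53, 11.13 and 10.11 in TEL-JAK2, with the same lowest and highest TEL-JAK2 arrays as Btg2. The measure describes 18193 genes on 7 arrays and carries no test.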

How the data were processed

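Affymetrix mouse arrays were hybridised with biotin-labelled cRNA from total RNA of 7 cell suspensions, 1 array each. The authors deposited log2 expression values per probe set, and the submitters' processing notes name RMA as the tool (background correction, normalization across arrays, summary of probes). The RMA version was not given in the sources used here. RMA draws arrays to 1 distribution and compresses folds near background. Values ran from 2.57 to 14.86 and were used as deposited. Scan dates and detection calls were not analysed here. The number of arrays limits the precision.

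Probe sets were named through the supplied platform annotation (34945 with 1 symbol, 932 with several, 9160 with none), and 34741 matched a RefSeq table of GRCm38.p6. Replicates were numbered in accession order. Every probe set was tested with limma 3.58.1 in R 4.3.3 (lmFit, eBayes without trend, two-sided, Benjamini-Hochberg over 45037), which was tested on simulated data. List genes stand by their brightest probe set.

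The members and lists were chosen with earlier results of these data known. Named were all members, called list genes by smallest adjusted p (up to 4 per list), up to 2 with the largest, members of counts of 5 or fewer, and the 3 nearest profiles of called members. Alternatives covered gene-level fits, cross-hybridizing and dim probe sets, 3 scalings, moderation, array weights, unequal variances, a 1.5-fold test, a stricter threshold and arrays left out. The offset for linear values was not needed.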

Additional observations from a re-analysis of the deposited data

Results flagged for a closer look

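Among the 67 probe sets followed in the 4 TEL-JAK2 arrays, 2 had 1 array that stood apart from the other 3 by Dixon's test of the gap over the range, where chance alone flags about 1 in 20. Fas read 7.76 in TEL-JAK2 replicate 4 and 8.85 to 9.03 in the other TEL-JAK2 arrays, so the array nearest to ICN1 was the one that departed. Eda2r, a receptor gene that p53 induces, read 3.96 in TEL-JAK2 replicate 3 and 4.17 to 4.21 in the others, all of them dim. None of the 22 probe sets of the 9 measured members was flagged in this way, Zmat3 included.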

How the results depend on the processing

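No paired analysis was possible because the labels give no shared replicate numbers. Of 8832 called probe sets (4172 higher, 4660 lower), the number was 4380 (2165, 2215) with the brightest probe set per gene, 4329 (2096, 2233) with probe sets averaged per gene, 2266 (1009, 1257) with unequal variances, 2196 (889, 1307) against a 1.5-fold difference, 4152 (1812, 2340) at an adjusted p under 0.01, 5813 (2286 higher) without ICN1 replicates 1 and 2 together, and 31563 (1558, 30005) with CD3 centring. The 5 member probe sets called higher became 2 of 9 in both gene-level fits, 1 with CD3 centring (and 7 lower), 1 without ICN1 replicates 1 and 2 together, and 0 with unequal variances, against a 1.5-fold difference and at 0.01 (4, 1 and 9 at an unadjusted p under 0.05). With array weights 7 of 22 member probe sets were called higher, and with dim probe sets left out 6 of 20. In the 7 fits without 1 array the number called higher was 0 to 6, and 6 at an unadjusted p under 0.05 where it was 0, without ICN1 replicate 2. Regulators of p53 called higher and lower (2 and 4) were 0 and 15 with CD3 centring, 0 and 2 with unequal variances, 0 higher against 1.5-fold and without both ICN1 replicates, 1 higher at 0.01, and 1 to 2 higher without 1 array. Other targets called higher and lower (5 and 4) were 2 and 12 with CD3 centring, 2 and 2 with unequal variances and without both ICN1 replicates, 0 and 1 against 1.5-fold, 2 higher at 0.01, and 3 to 5 higher without 1 array. Fewer features, fewer arrays or a stricter rule enter most of these by construction, and otherwise the cause was not tested. With CD3 centring some uncalled values changed sign and turned to lower calls. They were Mdm2 1457929_at (-0.52), Atm (-0.56), Ep300 (-0.57), Rchy1 (-0.49), Rpl11 (-0.55), Trp63 (-0.46), Trp73 (-0.50) and Tnfrsf10b (-0.42). Other uncalled values that were already below 0 became lower calls too, among them those of Sesn1, Usp7 and Atr. This centring moved every difference down by the same amount. Ccng1 and Btg2 stayed above 0 in all 18 alternatives run by probe set, but only the other scalings could have changed their sign. Groups that do not overlap keep their sign when arrays are dropped or weighted, and the remaining alternatives leave the difference as it was. Changes of sign among values called in neither fit occurred 59 times in 29 of the 67 probe sets. Signal near background limits Cdkn2a, Eda2r and the dim Mdm2 probe set.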
